A study of Saccharomyces cerevisiae with 24 samples.

Results

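The 7 genes described here make and break down trehalose in budding yeast. TPS1, TPS2, TPS3 and TSL1 encode the synthase complex, and NTH1, NTH2 and ATH1 encode trehalases. Each was represented by the probe set whose only gene symbol in the probe annotation was that of the gene, and each had 1 such probe set. They are 7 of 5656 genes with a probe set, and all 7 passed the filter on low signals, which left 5171 genes for the tests. The systematic names are YBR126C (TPS1), YDR074W (TPS2), YMR261C (TPS3), YML100W (TSL1), YDR001C (NTH1), YBR001C (NTH2) and YPR026W (ATH1). By mean signal they ranged from percentile 22.2 for ATH1 to percentile 89.4 for TSL1.

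Trehalose is a disaccharide of glucose that yeast builds up in stationary phase and under heat, desiccation and other stresses, where it protects proteins and membranes. Tps1 joins UDP-glucose and glucose 6-phosphate into trehalose 6-phosphate, which also restrains hexokinase, and Tps2 removes the phosphate. Tps3 and Tsl1 are large, related subunits that regulate and stabilise the complex. Nth1 is the main neutral trehalase of the cytosol and is activated by protein kinase A together with 14-3-3 proteins. Nth2 is its close relative, and Ath1 is the acid trehalase that lets cells grow on trehalose from outside. Several of these genes carry the stress element bound by Msn2 and Msn4.

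All arrays measured the haploid laboratory strain BY4730 on Affymetrix S98 arrays, 24 in all, after 120 min of exposure. The agents were bleomycin, a DNA-cleaving drug, on 3 arrays (0.15 U/ml for replicates 1 and 3, 0.1 U/ml for replicate 2), the DNA-methylating agent MMS on 3 arrays (0.12% for replicates 1 and 2, 0.14% for replicate 3), and the DNA-crosslinking drug cisplatin on 2 arrays (500 and 650 ug, with no volume in the titles). The others were NaCl on 3 arrays (10%, 8% and 9% for replicates 1, 2 and 3) and ethanol on 2 arrays (15%). The 11 control arrays came from cells given the DMSO solvent or kept in medium, the solvent being meant for bleomycin, MMS and cisplatin and plain medium for NaCl and ethanol. The labels do not say which control array had which, and on shared days bleomycin and NaCl had the same control. The protocol text gives NaCl and cisplatin in other amounts than the titles, so these doses are uncertain. Each treated array was set against the control array of its day, an assumption for ethanol replicate 1, whose title has another year. By the titles, the ethanol arrays came from February and March and the MMS arrays from July and August. The bleomycin, cisplatin and NaCl arrays came from October. The labels do not say that arrays came from separate cultures, so p-values measure only the spread between these arrays.

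The arrays differed in the signals of their 5′ and 3′ probe sets for the actin mRNA ACT1. Whether this reflects the state of the RNA was not tested. NaCl replicates 2 and 3 (ACT1 3′ signals of 7.98 and 8.21 on the log2 scale) and control replicate 11 (9.37) stood apart, and all other arrays lay at 10.55 or above. The median correlation of these 3 arrays with the control arrays was 0.674, 0.656 and 0.809, against at least 0.888 for every other array. The ACT1 5′ signal was 8.35 to 8.83 with MMS and 4.76 to 5.93 on the same-day controls. It differed by -5.38 between cisplatin replicate 1 and its control. The strain is known to lack URA3, MET17 and LEU2. URA3 and MET17 were low, averaging 3.43 and 3.89 in the controls. The 3 LEU2 probe sets were higher, averaging 5.47 to 5.68, near the array medians of the deposited values (5.33 to 5.63). The highest value was 8.05 for 1 of these probe sets and 6.57 for another. Whether these signals came from LEU2 was not tested. The a-cell pheromone gene MFA2 averaged 11.95 and STE3, the receptor gene of alpha cells, 3.75. The alpha-cell pheromone gene MF(ALPHA)1 was not as low as STE3, averaging 5.18 in the controls.

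MMS raised 5 of the 7 genes, the neutral trehalase gene NTH1 by 4.42 and the synthase gene TPS1 by 3.03 on the log2 scale, and lowered none. NaCl lowered 6 and raised none, with changes of -2.52 for TPS2, -2 for TSL1 and -1.72 for TPS1. With ethanol the regulatory subunit gene TSL1 fell by 2.48, while NTH1 and NTH2 were at 1.36 and 1.3 and were not called. Limma called 0 of the 7 with bleomycin and 0 with cisplatin, where 1 (ATH1) and 0 had an unadjusted p under 0.05. These are changes from limma, a linear model fitted to all genes, with the day as a block, and a gene was called at an adjusted p (Benjamini-Hochberg over the genes tested) under 0.05. By the same rule 33.5% of all genes tested rose and 17% fell with MMS, 14.1% rose and 37.6% fell with NaCl, and 3.83% rose and 1.18% fell with ethanol. With bleomycin 1.45% rose and 0.406% fell, and with cisplatin 0.329% rose and 0.135% fell. The median change of the 7 genes was 1.31 with MMS, -1.72 with NaCl, -0.29 with ethanol, 0.60 with bleomycin and 0.47 with cisplatin, beside 0.29, -0.45, 0.14, -0.08 and -0.07 over all genes. The count with MMS depended on the processing: all 7 were called under median scaling or with the deposited values as they stand, and 2 (TPS1 and NTH1) with the ACT1 5′ signal as a covariate beside the day. The other counts moved too. With that covariate 2 fell with NaCl, TPS2 and TSL1. With only the NaCl arrays and their controls in the fit 0 of the 7 were called, where 1 of all genes was called. With the 3 arrays of low ACT1 3′ signal left out, NaCl rests on replicate 1, with NTH1 at 0.25 and ATH1 at -0.16. There 4 of the 7 were called with bleomycin and 5 with ethanol, where 562 and 2202 of all genes were called.

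**Figure D1:**
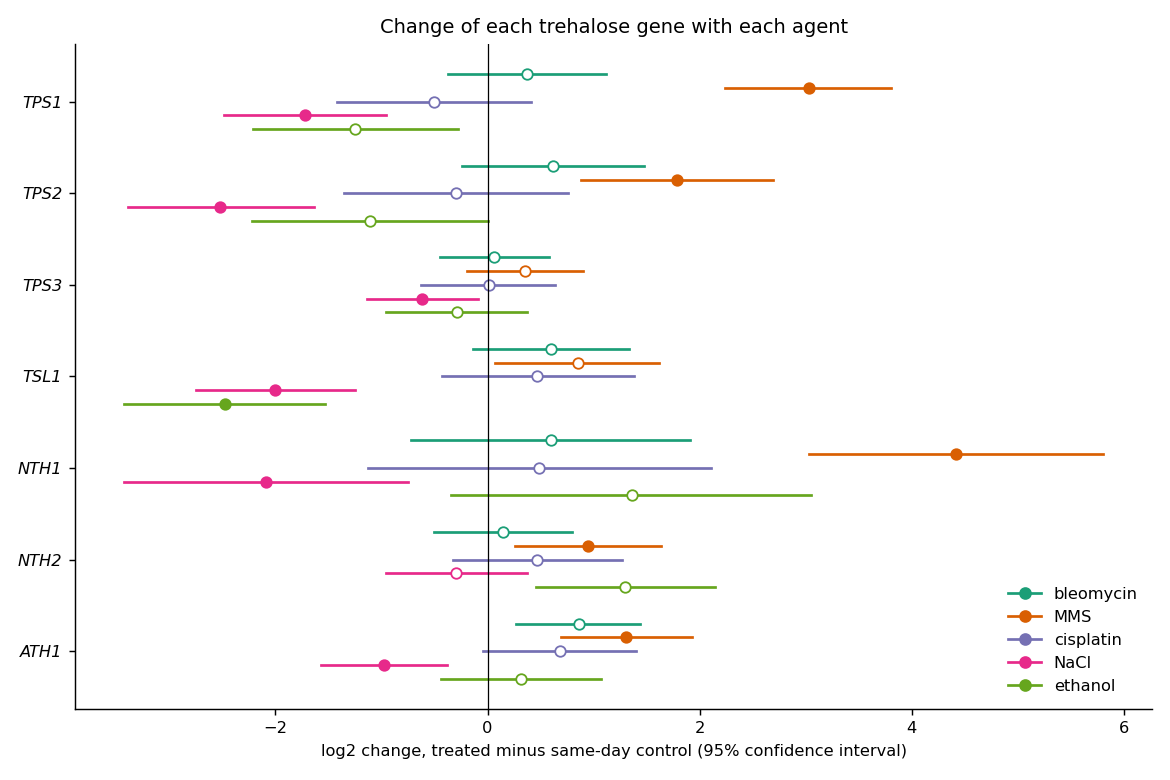
Log2 change of each trehalose gene with each agent relative to same-day control arrays (points) with its 95% confidence interval (lines); filled points were called at an adjusted p under 0.05. NTH1 and TPS1 with MMS lie farthest to the right, and TPS2 with NaCl and TSL1 with ethanol farthest to the left.

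The synthesis genes are given first. TPS1, the synthase itself, read 9.60, 9.88 and 9.83 with MMS (replicates 1 to 3), against 6.67, 6.77 and 6.80 on the same-day controls. All 3 MMS arrays lay above all 11 control arrays, which ran from 6.32 through a median of 7.28 to 8.11. The rise of 3.03 ± 0.36 (SE, 8.15-fold, limma, adjusted p = 4.28e-05) was nearly the same on each day, with differences of 2.94, 3.11 and 3.03. The 3 MMS arrays were also 2.82 to 4.07 higher than their controls in the ACT1 5′ signal, and its part in the rise was not tested. With a class of low ACT1 5′ signal in place of the day the rise was 2.16 (adjusted p = 1.69e-06).

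TPS1 was lower than in all controls with NaCl and with ethanol. It read 6, 5.39 and 5.30 with NaCl, against 7.63, 7.41 and 7.28 on the same-day controls, a change of -1.72 ± 0.349 (limma, adjusted p = 0.00367). It read 5.07 and 5.29 with ethanol, against 6.54 and 6.32 on the controls, a change of -1.25 ± 0.441 that was not called (adjusted p = 0.122). With the 3 arrays of low ACT1 3′ signal left out, NaCl rests on replicate 1 alone, assumed to vary like the other groups: TPS1 was then -1.14 with NaCl (adjusted p = 0.125) and -1.25 with ethanol (adjusted p = 0.0173). The ethanol arrays had ACT1 3′ signals of 11.04 and 10.90, against 10.55 and 10.99 on their controls.

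With bleomycin TPS1 differed between days. It read 7.05, 7.95 and 8.81, against 7.63, 7.41 and 7.30 on the controls, so it was lower on 1 day and higher on 2 (0.37 ± 0.342, limma, adjusted p = 0.769). With cisplatin it read 6.69 and 7.69, against 7.62 and 7.30, also split between the days (-0.50 ± 0.42, adjusted p = 0.681). The 95% confidence intervals were -0.37 to 1.12 with bleomycin and -1.42 to 0.41 with cisplatin. Across groups TPS1 was ordered MMS, bleomycin, cisplatin, control, NaCl and ethanol, with means of 9.77, 7.94, 7.19, 7.13, 5.56 and 5.18, and the ranges of bleomycin, cisplatin and control overlapped.

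**Figure D2:**
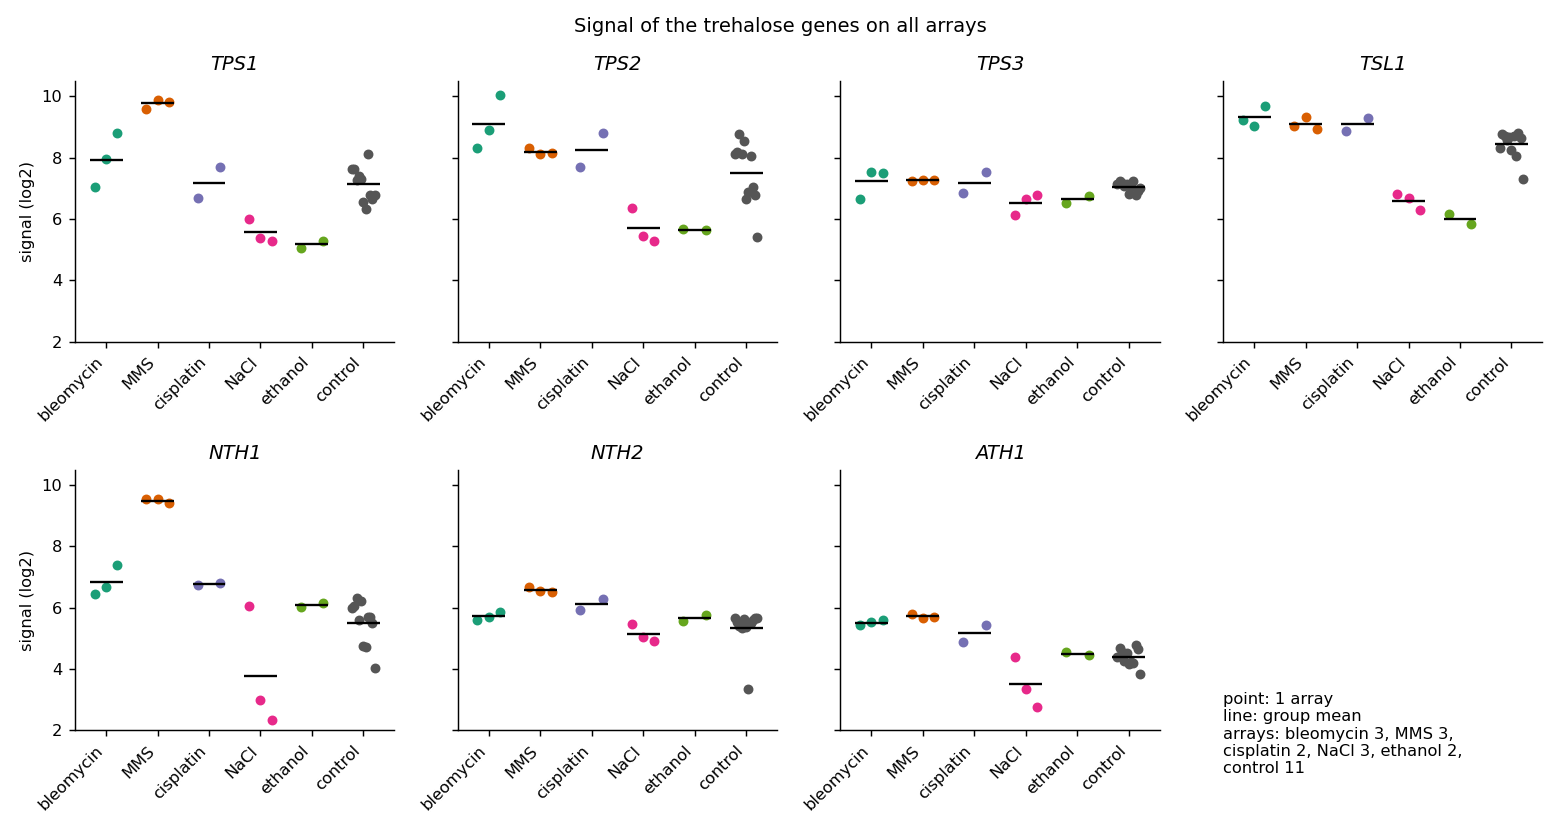
Quantile-normalized signal (log2) of the 7 trehalose genes on all 24 arrays, by agent and for the control arrays (points, 1 array each; lines, group means). TPS1 and NTH1 with MMS lie above all other arrays, and TPS1 and TSL1 with NaCl and ethanol lie below all control arrays.

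TPS2, the trehalose 6-phosphate phosphatase gene, showed the widest spread among the synthesis genes in the controls, from 5.4 through a median of 8.05 to 8.77. With NaCl it read 6.37, 5.46 and 5.28, against 8.19, 8.11 and 8.77 on the same-day controls. The change of -2.52 ± 0.402 (limma, adjusted p = 0.00137) placed it at rank 229 from the lowest of 5171 genes. It stayed called with the 3 low-ACT1 arrays left out, at -1.49 (adjusted p = 0.0148). NaCl replicate 1 alone, with an ACT1 3′ signal of 10.97, differed from its control by -1.82.

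With MMS, TPS2 read 8.31, 8.12 and 8.17, against 6.80, 5.4 and 7.04 on the same-day controls, a rise of 1.79 ± 0.415 (3.45-fold, limma, adjusted p = 0.00384). The MMS arrays lay inside the range of all controls, and the same-day controls were among its lower values. In the 6 controls with a low ACT1 5′ signal TPS2 ran from 5.4 to 8.19, and in the other 5 from 8.05 to 8.77. With that class in place of the day the change with MMS was -0.06 (adjusted p = 0.921), without any day term 0.70 (adjusted p = 0.295), and with the ACT1 5′ signal as a covariate beside the day 1.41 (adjusted p = 0.107).

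TPS2 was 8.31, 8.89 and 10.06 with bleomycin, against 8.19, 8.11 and 8.55, higher on each of the 3 days (0.62 ± 0.394, limma, adjusted p = 0.68). With the 3 low-ACT1 arrays left out it rose by 0.78 ± 0.223 (adjusted p = 0.0431). With cisplatin it read 7.69 and 8.79, against 8.11 and 8.55 (-0.30 ± 0.484, adjusted p = 0.853). With ethanol it read 5.68 and 5.63, against 6.66 and 6.87 (-1.11 ± 0.508, adjusted p = 0.21), and -1.11 ± 0.279 with the low-ACT1 arrays left out (adjusted p = 0.00761).

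TSL1, the larger of the regulatory subunits and a gene of the general stress response, separated the DNA-damaging agents from the other stresses without overlap. It read 9.24, 9.03 and 9.69 with bleomycin, 9.03, 9.33 and 8.95 with MMS and 8.87 and 9.30 with cisplatin. It read 6.81, 6.69 and 6.31 with NaCl and 6.17 and 5.83 with ethanol. The controls lay between, from 7.30 through a median of 8.65 to 8.81. Every array of the 3 DNA-damaging agents was thus above all controls and every NaCl or ethanol array below them. The upper margin was small, 8.87 with cisplatin against 8.81 for the highest control. How many genes shared this joint pattern was not counted. Taken 1 agent at a time, 5.61% of all genes lay above with bleomycin, 28.6% with MMS and 5.12% with cisplatin. Below all controls lay 5.2% with NaCl and 9.4% with ethanol.

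Against same-day controls TSL1 fell by 2 ± 0.344 with NaCl (limma, adjusted p = 0.00185) and by 2.48 ± 0.435 with ethanol (adjusted p = 0.0114). With ethanol only 11 of 5171 genes had a lower change. Both calls were kept with the 3 low-ACT1 arrays left out, at -1.86 (adjusted p = 0.00197) for NaCl and -2.48 (adjusted p = 2.69e-05) for ethanol. The call with ethanol was lost when the treated or control array of either day was left out, which removes that day's pair. The change was then -2.88 on replicate 2 alone and -2.08 on replicate 1 alone. With MMS TSL1 was 0.85 ± 0.355 (adjusted p = 0.0657), of which replicate 2 gave 2.03 against control replicate 11 and replicates 1 and 3 gave 0.38 and 0.14. It was called without MMS replicate 3 or control replicate 9 (1.20 in both, adjusted p = 0.0418 and 0.0419) and was 0.26 with the low-ACT1 arrays left out (adjusted p = 0.362). It was also called under median scaling (1.14, adjusted p = 0.0312) and with the deposited values (1.08, adjusted p = 0.0327). With bleomycin it was 0.60 ± 0.337 (adjusted p = 0.618), higher on each of the 3 days, and with cisplatin 0.47 ± 0.414 (adjusted p = 0.699), higher on both.

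TPS3, the paralog of TSL1, varied least. Its controls ran from 6.79 through 7.08 to 7.25. It read 6.12, 6.64 and 6.80 with NaCl, against 7.25, 7.08 and 7.16 on the same-day controls. The change of -0.62 ± 0.241 (limma, adjusted p = 0.0491) was close to the threshold, and its call was lost without any 1 of control replicates 2, 3 or 4 or NaCl replicates 1, 2 or 3 (adjusted p up to 0.184). With MMS it read 7.25, 7.27 and 7.28, against 6.92, 7.02 and 6.79 (0.35 ± 0.249, adjusted p = 0.255). Under median scaling and with the deposited values this was 0.87 and 0.81, and called (adjusted p = 0.0197 and 0.0227). With ethanol it read 6.53 and 6.75, against 6.83 and 7.04, both below all controls (-0.29 ± 0.305, adjusted p = 0.588). With bleomycin and cisplatin it was 0.06 ± 0.236 and 0.01 ± 0.29, with days of either sign.

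Of the trehalase genes, NTH1 had the largest change of the 7. With MMS it read 9.54, 9.53 and 9.42, against 5.5, 4.03 and 5.69 on the same-day controls. All MMS arrays lay far above the controls, which ran from 4.03 through 5.69 to 6.32. The rise of 4.42 ± 0.635 (21.4-fold, limma, adjusted p = 0.000155) was rank 34 among 5171 genes. Replicate 2 gave the largest daily difference, 5.5, against control replicate 11, the control of low ACT1 3′ signal. With the low-ACT1 arrays left out, where MMS rests on replicates 1 and 3, the rise was 3.88 ± 0.223 (limma, adjusted p = 4.79e-08). With the ACT1 5′ class in place of the day it was 3.61 (adjusted p = 1.47e-05).

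With NaCl the 3 arrays differed widely in NTH1. It read 6.05, 2.98 and 2.33, against 6.07, 5.60 and 6.32 on the same-day controls. Replicate 1 was thus level with its control (-0.01), and replicates 2 and 3, the arrays of low ACT1 3′ signal, differed from theirs by -2.62 and -3.99. The change of -2.09 ± 0.615 (limma, adjusted p = 0.016) lost its call without NaCl replicate 2 (-1.67, adjusted p = 0.118), NaCl replicate 3 (-1.23, 0.158) or control replicate 3 (-1.23, 0.158). With the 3 low-ACT1 arrays left out NTH1 was 0.25 with NaCl, with a 95% confidence interval of -0.37 to 0.87 (adjusted p = 0.61). The lowest control value of NTH1, 4.03, was also that of control replicate 11.

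**Figure D3:**
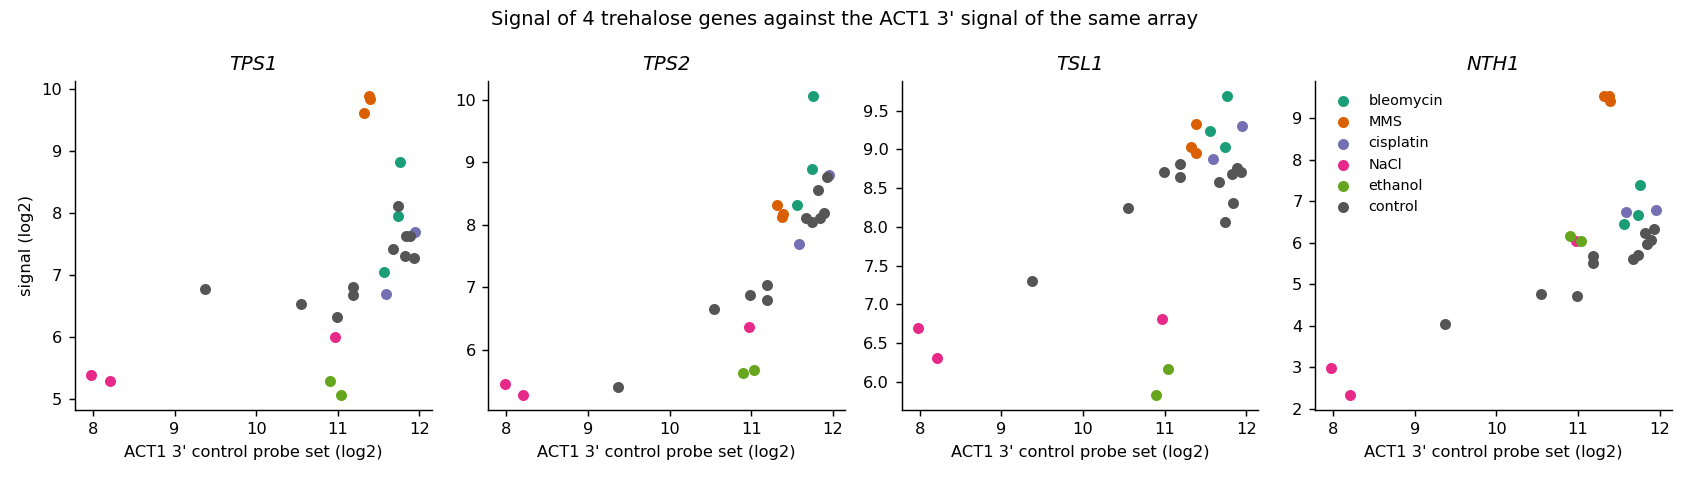
Signal (log2) of TPS1, TPS2, TSL1 and NTH1 on each of the 24 arrays against the ACT1 3′ control probe set of the same array (log2), by group. NaCl replicates 2 and 3 (7.98 and 8.21) and control replicate 11 (9.37) lie at the left; TPS1, TPS2 and TSL1 are low with ethanol at ACT1 3′ signals of 10.90 and 11.04, where NTH1 is not.

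NTH1 was above its same-day control on every day with ethanol, bleomycin and cisplatin. It read 6.03 and 6.16 with ethanol, against 4.76 and 4.72, inside the range of all controls (1.36 ± 0.778, limma, adjusted p = 0.309). It read 6.44, 6.68 and 7.39 with bleomycin, against 6.07, 5.60 and 6.23 (0.60 ± 0.603, adjusted p = 0.793). It read 6.73 and 6.80 with cisplatin, against 5.98 and 6.23 (0.49 ± 0.74, adjusted p = 0.84). The bleomycin and cisplatin arrays all lay above the highest control. With the low-ACT1 arrays left out, NTH1 rose by 1.36 ± 0.223 with ethanol (adjusted p = 0.000632) and by 0.90 ± 0.178 with bleomycin (adjusted p = 0.00621). The fit uses all treated arrays of a day, so NaCl replicates 1 and 2 also bear on the bleomycin values of their days, and fitted changes can differ from the mean of the daily differences.

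NTH2, the paralog of NTH1, changed less. With MMS it read 6.69, 6.56 and 6.52, against 5.66, 5.68 and 5.59, so the daily differences were 1.03, 0.89 and 0.93. The rise was 0.95 ± 0.315 (1.93-fold, limma, adjusted p = 0.0251). Its call was lost without any 1 of MMS replicates 1, 2 or 3 or control replicates 9, 10 or 11 (adjusted p from 0.0763 to 0.0974). Its size stayed between 0.91 and 0.98. Each MMS day had 1 treated and 1 control array, so leaving out either removed the same pair. With the ACT1 5′ covariate the rise was 0.65 (adjusted p = 0.325). With ethanol it read 5.58 and 5.75, against 5.37 and 3.35. The value of 1.3 ± 0.385 (adjusted p = 0.0754) thus rested mainly on control replicate 7, which read 3.35 where the other 10 controls lay between 5.35 and 5.68, and without that control the change was 0.21. Without control replicate 6 or ethanol replicate 1, which removes the same pair, it was 2.40, on ethanol replicate 2 alone. NTH2 was 5.47, 5.04 and 4.92 with NaCl, against 5.55, 5.35 and 5.42 (-0.30 ± 0.305, adjusted p = 0.425), 5.61, 5.69 and 5.86 with bleomycin, against 5.55, 5.35 and 5.62 (0.15 ± 0.299), and 5.94 and 6.28 with cisplatin, against 5.67 and 5.62 (0.47 ± 0.367).

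ATH1, the acid trehalase gene, had the lowest signals of the 7, near the filter limit of 3.786. It read 5.80, 5.67 and 5.71 with MMS, against 4.65, 3.83 and 4.77, a rise of 1.31 ± 0.283 (2.48-fold, limma, adjusted p = 0.00249). With the ACT1 5′ class in place of the day it was 1.29 (adjusted p = 0.000315), but with the ACT1 5′ signal as a covariate beside the day the call was lost (0.90, adjusted p = 0.113). With bleomycin it read 5.43, 5.52 and 5.59, against 4.68, 4.25 and 4.53. These arrays lay above all controls (3.83 to 4.77) and above their own control by 0.75, 1.28 and 1.06, but the change of 0.86 ± 0.269 was not called (adjusted p = 0.187). Without the day term it was 1.13 (adjusted p = 0.00443), and with the low-ACT1 arrays left out 0.99 (adjusted p = 0.00121).

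With cisplatin ATH1 read 4.90 and 5.45, against 4.40 and 4.53, also above all controls (0.68 ± 0.33, limma, adjusted p = 0.431). With NaCl it read 4.40, 3.36 and 2.76, against 4.68, 4.25 and 4.57. The change of -0.98 ± 0.274 (adjusted p = 0.0133) was larger on the arrays of low ACT1 3′ signal, with daily differences of -0.28, -0.89 and -1.81. Its call was lost without NaCl replicate 2 (adjusted p = 0.0815), NaCl replicate 3 (0.128) or control replicate 3 (0.129), and was -0.16 with the low-ACT1 arrays left out (adjusted p = 0.708). With ethanol ATH1 read 4.55 and 4.46, against 4.16 and 4.22 (0.32 ± 0.347, adjusted p = 0.608).

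**Figure D4:**
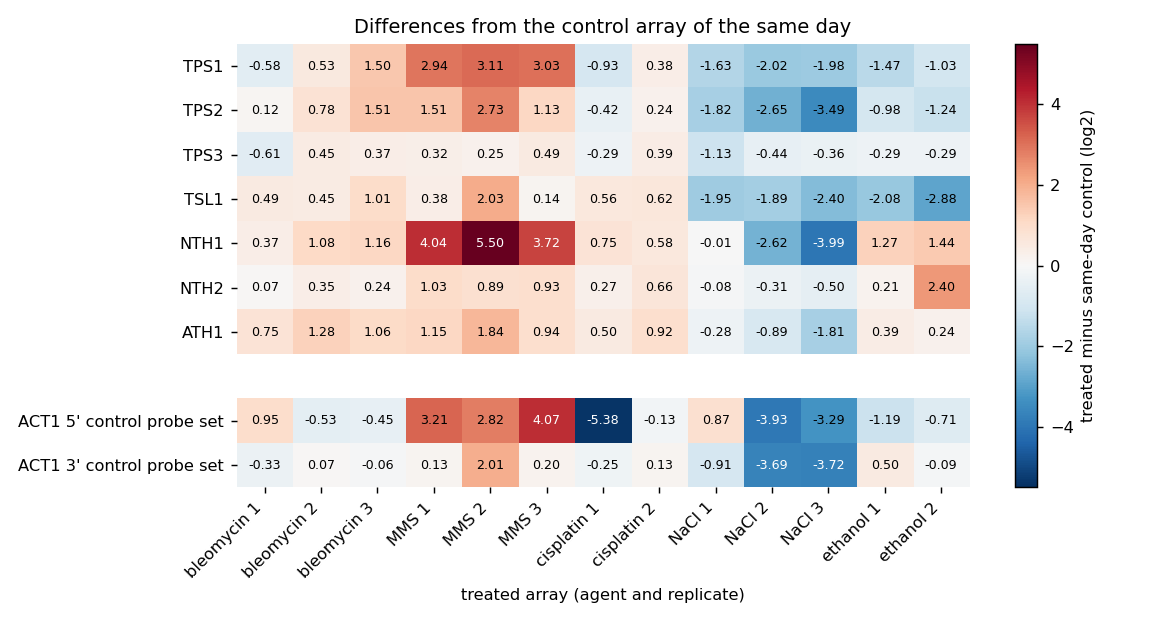
Difference (log2) between each of the 13 treated arrays and the control array of its day for the 7 trehalose genes, and below them for the ACT1 5′ and 3′ control probe sets. With ethanol the synthesis genes (first 4 lines) are negative and the trehalase genes positive on both days; NTH1 with NaCl is -0.01 on replicate 1 and -2.62 and -3.99 on the arrays with ACT1 3′ differences of -3.69 and -3.72.

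With ethanol synthesis and breakdown genes thus lay on opposite sides of 0 on both days. Of the 4 synthesis genes 1 fell and of the 3 trehalase genes 0 were called (medians -1.18 and 1.3), where 3.83% of all genes rose and 1.18% fell. The median over all genes was 0.14. The trehalase median was the value of NTH2, which was 0.21 without control replicate 7, and ATH1 was at 0.32. With the 3 low-ACT1 arrays left out, which came from other days, ethanol lowered TPS1, TPS2 and TSL1 and raised NTH1 and NTH2, and limma called 26.6% of all genes higher and 16% lower there. NTH2 was at the same 1.3 there as with all arrays, with a standard error of 0.359 in place of 0.385. In that fit NaCl lowered 2 of the 7, TPS2 and TSL1, where 7.12% of all genes rose and 9.65% fell. Bleomycin raised 4 of the 7 there (TPS2, TSL1, NTH1 and ATH1), where 5.8% rose and 5.07% fell. Cisplatin raised ATH1 there, by 0.72 (adjusted p = 0.0167), where 6.92% rose and 12.9% fell. MMS again raised 5 of the 7, TPS1, TPS2, NTH1, NTH2 and ATH1, where 36.9% rose and 26% fell. Without control replicate 11, MMS replicate 2 has no control of its day, so MMS rests on replicates 1 and 3 there.

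Counted against all 11 controls in place of the same-day ones, the arrays of an agent lay above every control for 5 of the 7 genes with MMS (28.6% of all genes), for 3 with bleomycin (5.61%) and for 4 with cisplatin (5.12%). TSL1, NTH1 and ATH1 were above with each of the 3 agents. None of the 7 lay below every control with MMS (13.2% of all genes), bleomycin (1.62%) or cisplatin (1.82%). All arrays of the agent lay below every control for TPS1 and TSL1 with NaCl (5.2% of all genes) and for TPS1, TPS3 and TSL1 with ethanol (9.4%), and above every control for none (2.19% with NaCl and 16.7% with ethanol). The 5 agents share these controls, which differed between months. TPS1 read 6.54 and 6.32 on the controls of the ethanol days and 7.28 to 7.63 on the October controls. In this count agent and period of the year cannot be told apart for ethanol and MMS.

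The difference between the 3 DNA-damaging agents and the other stresses was tested as the mean of bleomycin, MMS and cisplatin minus the mean of NaCl and ethanol. The first mean joins agents that differed. TPS1 was 0.37 with bleomycin, 3.03 with MMS and -0.50 with cisplatin, and NTH1 was 0.60, 4.42 and 0.49. The difference also holds the falls with the other stresses, for TSL1 -2 with NaCl and -2.48 with ethanol. Agent and period cannot be told apart for ethanol and MMS. By this difference 5 of the 7 genes were higher with the DNA-damaging agents and 0 lower, where 17.7% of all genes were higher and 7.35% lower. With the low-ACT1 arrays left out 6 were higher, TPS3 with them, where 22.8% were higher and 22.6% lower. TSL1 differed by 2.88 ± 0.335 (limma, adjusted p = 0.00022), TPS2 by 2.52 ± 0.391 (adjusted p = 0.00101) and TPS1 by 2.45 ± 0.34 (adjusted p = 0.000505), and TSL1 was rank 40 of 5171 genes. The trehalase genes NTH1 and ATH1 differed by 2.20 ± 0.599 (adjusted p = 0.02) and 1.28 ± 0.267 (adjusted p = 0.00517). TPS3 (0.60, adjusted p = 0.0831) and NTH2 (0.02, 95% confidence interval -0.63 to 0.67) were not called. The call of NTH1 was lost without any 1 of control replicates 1, 6 or 7, NaCl replicate 2, ethanol replicates 1 or 2 or cisplatin replicate 1 (adjusted p from 0.0511 to 0.0818), and TPS3 was called without bleomycin replicate 1 (adjusted p = 0.0466).

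MMS was set against bleomycin, the other DNA-damaging agent with 3 arrays. Each was compared with controls of its own days, which fell in different months, so agent and period cannot be told apart. NTH1 rose by 3.82 ± 0.876 more with MMS (limma, adjusted p = 0.00584) and TPS1 by 2.65 ± 0.497 more (adjusted p = 0.00192). These were 2 of 7 genes higher with MMS, where 25.9% of all genes were higher and 10.4% lower. The same pair was called with the low-ACT1 arrays left out, where 33.4% were higher and 20.6% lower. TPS2 (1.17), NTH2 (0.80), ATH1 (0.46), TPS3 (0.29) and TSL1 (0.25) did not differ beyond the threshold, and the 95% confidence interval for TSL1 was -0.82 to 1.32. TPS2 turned to -1.35 (adjusted p = 0.0355) with the ACT1 5′ class in place of the day.

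Ethanol was set against NaCl, again with controls from different months, so agent and period cannot be told apart. The trehalase genes NTH1, NTH2 and ATH1 were higher with ethanol, by 3.45 ± 0.991 (limma, adjusted p = 0.0248), 1.60 ± 0.491 (adjusted p = 0.0293) and 1.29 ± 0.442 (adjusted p = 0.0411), where 26.2% of all genes were higher and 9.79% lower. The median over all genes was 0.70. A larger rise was seen for 2.61% of genes than for NTH1, 26.4% than for NTH2 and 34.3% than for ATH1. The 4 synthesis genes were not called, from -0.47 ± 0.554 for TSL1 to 1.41 ± 0.647 for TPS2. With the 3 low-ACT1 arrays left out limma called 0 of the 7, where 11% of all genes were higher and 4.29% lower, and the 95% confidence intervals of NTH1 (0.32 to 1.89, adjusted p = 0.0574) and NTH2 (0.05 to 2.59, adjusted p = 0.139) excluded 0. NTH1 lost its call without any 1 of control replicates 3, 6 or 7, NaCl replicates 2 or 3 or ethanol replicates 1 or 2 (adjusted p up to 0.131). NTH2 lost it without control replicates 3, 4 or 7, NaCl replicates 2 or 3 or ethanol replicate 2 (up to 0.303), and ATH1 without control replicates 3, 4, 6 or 7, NaCl replicates 2 or 3 or either ethanol array (up to 0.189). TPS2 was called without NaCl replicate 1 (1.93, adjusted p = 0.00606).

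The wider lists are read beside the shares of all genes called in the same fit. Of 6 genes of hexose phosphorylation and UDP-glucose synthesis, 4 rose and 1 fell with MMS (median 1.57), where 33.5% of all genes rose and 17% fell, with the glucokinase gene GLK1 at 4.42 ± 0.571, the UDP-glucose pyrophosphorylase gene UGP1 at 2.83 ± 0.608 and the hexokinase gene HXK2 at 1.73 ± 0.477 (limma, adjusted p = 7.3e-05, 0.00243 and 0.00996). PGM1, the minor phosphoglucomutase gene, fell by 1.35. With NaCl 5 of the 6 fell (median -2.69), where 37.6% of all genes fell, with PGM2, the major phosphoglucomutase gene, at -4.95 ± 0.737, GLK1 at -3.26 and HXK1 at -3.06 ± 0.291. With the low-ACT1 arrays left out 2 of the 6 fell with NaCl, PGM2 (-2.77) and HXK1 (-2.74), where 9.65% of all genes fell. With ethanol 1 fell, HXK1 by 1.87 ± 0.369 (adjusted p = 0.0176), and limma called 0 with bleomycin and 0 with cisplatin. Without the low-ACT1 arrays 4 fell with ethanol, where 16% of all genes fell. In that fit HXK1 rose (0.76) and HXK2 fell (-0.96) with bleomycin, where 5.8% of all genes rose and 5.07% fell. PGM2 rose (1.27) and HXK2 fell (-1.61, adjusted p = 0.0061) with cisplatin, where 6.92% of all genes rose and 12.9% fell. HXK2 thus had the opposite sign to its change with MMS.

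Glycogen is the other reserve carbohydrate made from UDP-glucose. Of 12 genes of its metabolism tested, 2 rose and 3 fell with MMS (median -0.29), where 33.5% of all genes rose and 17% fell, with the glycogen synthase gene GSY1 at -1.97 ± 0.303 and GAC1, a targeting subunit of the glycogen phosphatase, at -1.3 ± 0.299 (limma, adjusted p = 0.000255 and 0.0037). 8 fell and 1 rose with NaCl (median -1.26), where 37.6% of all genes fell, led by the glycogen phosphorylase gene GPH1 (-3.58 ± 0.347), GSY2 (-3.52) and GSY1 (-2.92), and 8 fell with the low-ACT1 arrays left out (9.65% of all genes). 4 fell with ethanol (median -0.76; 1.18% of all genes fell), including GLC3, the branching enzyme gene, and GSY1, both at -2.05, and 8 fell with the low-ACT1 arrays left out (16% of all genes). GAC1 rose by 1.43 with bleomycin (adjusted p = 0.0241), the sole call among the 12, and limma called 0 with cisplatin. When the low-ACT1 arrays were left out 5 of the 12 rose with bleomycin (5.8% of all genes). With cisplatin SGA1 rose (0.81) and GSY1 fell (-0.76) in that fit, where 6.92% of all genes rose and 12.9% fell.

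Of 15 genes of the protein kinase A pathway and of trehalase regulation, 8 rose and 1 fell with MMS (median 0.65), where 33.5% of all genes rose and 17% fell. DCS1, whose product inhibits Nth1, rose by 4.08 ± 0.343 (limma, adjusted p = 4.08e-06), BCY1, the inhibitory subunit of protein kinase A, by 3.14 ± 0.435, and the GTPase gene RAS2 by 3.04 ± 0.382. With NaCl 11 fell and 1 rose (median -1.22), RAS2, BCY1 and DCS1 at -3.43, -2.44 and -1.84, where 37.6% of all genes fell, and 4 fell with the low-ACT1 arrays left out (9.65% of all genes). A list of 7 genes for stress transcription factors and kinases holds MSN2 and MSN4 but also HSF1, whose product binds the separate heat shock element. Of these, 6 rose with MMS (median 1.5; 33.5% of all genes rose), among them HSF1 (2.39 ± 0.18), MCK1 (2.32) and MSN4 (1.79 ± 0.214), and 4 fell with NaCl (median -0.89; 37.6% of all genes fell). Without the low-ACT1 arrays, where NaCl rests on replicate 1, the median of the 7 with NaCl was -0.54, beside -0.04 over all genes. The 7 then ran from -1.02 for YAK1 to 1.41 for MSN2, so they did not all fall. In both lists limma called 0 genes with ethanol, bleomycin or cisplatin with all arrays. With those arrays left out 5 of the 15 rose and 5 fell with ethanol, where 26.6% of all genes rose and 16% fell. In that fit 3 of the 15 (RAS1, RAS2 and BCY1) and MSN2 (-1.27, adjusted p = 0.014) fell with cisplatin, where 12.9% of all genes fell. With bleomycin DCS2 and YAK1 rose and RAS1 fell there, where 5.8% of all genes rose and 5.07% fell. Of the uptake genes, MAL11 and MAL31 passed the filter, and both rose with MMS (1.19 and 1.18) and fell with NaCl (-0.86 and -0.94), where neither was called with the low-ACT1 arrays left out.

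The members also differed in how alike their patterns were over the 13 differences between a treated array and its control, which share controls and days and are given as a description. TPS1 and TPS2 had a Pearson correlation of 0.91, TPS2 and ATH1 of 0.96, and TSL1 and NTH2 of 0.04. The genes most like TPS1 were SAF1 (0.986), COQ4 (0.978) and the vacuolar protease gene PRB1 (0.975). Those most like TSL1 were the stress gene STF2 (0.971), YJR096W (0.948) and PIC2 (0.943). Those most like NTH1 were the glutaredoxin gene GRX5 (0.99), YDL086W (0.987) and MDM12 (0.986), and those most like ATH1 were the cell wall gene SPI1 (0.974), the hexose transporter gene HXT7 (0.974) and GRX1 (0.973). High values were common: 713 genes had a correlation over 0.9 with NTH1 and 257 with TPS1, against 16 with TSL1.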

How the data were processed

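Yeast RNA was read on 24 Affymetrix S98 arrays, and the authors deposited log2 signals for 9335 probe sets. No label or file header states how they were summarised or normalized. The deposited log2 values were quantile-normalized, 1 probe set per gene was kept by highest mean, and genes with a mean under 3.786 were left out. Agents were compared with limma 3.58.1 in R 4.3.3, with the day as a block, a mean-variance trend and Benjamini-Hochberg adjustment over 5171 genes. The procedure was tested on simulated data. Days were taken from the sample titles. Over the 13 treated arrays, the correlation of an array's deviation from its group mean with that of its same-day control ran from -0.565 to 0.68. The number of arrays limits the precision. All 7 genes are named, with up to 3 genes of each wider list per agent by size of change, and the 3 genes most like TPS1, TSL1, NTH1 and ATH1. The members and lists were chosen with earlier results of these data known. Alternatives changed the scaling, filter, day term, ACT1 terms and arrays included.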

Additional observations from a re-analysis of the deposited data

How the results depend on the processing

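Of 776 values of the 7 genes recomputed under 14 other settings, 660 kept their direction and side of the threshold, 44 lost a call, 41 gained one and 31 changed sign. The trial of other probe sets of a gene was not run, since each had 1. The cause of the differences below was not tested. Median scaling shifted the median of all genes with MMS to 0.40 (0.29 before).

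Numbers of all genes called, of 5171 or 5172 tested, are in parentheses, that of the main fit first. With bleomycin (96), 1 of the 7 genes was called under median scaling (146), deposited values (163), no replicate block (210) and a random block (208). The number was 2 with only the arrays compared (514) or the ACT1 5′ class (259), and 4 with the 3 low-ACT1 arrays left out (562). With MMS (2610) it was 7 under median scaling (2937) and with the deposited values (2979), and 2 with ACT1 5′ as a covariate (1309). With cisplatin (24) it was 1 without the low-ACT1 arrays (1024). With NaCl (2673) it was 0 with only the arrays compared, where 1 of all genes was called, and 2 with the covariate (552). With ethanol (259) it was 2 with no block (603), a random block (600) or the class (603). It was 4 with only the arrays compared (1352) and 5 without the low-ACT1 arrays (2202). For MMS minus bleomycin (1875) it was 4 under median scaling (2283) and 0 with the covariate (660). For ethanol minus NaCl (1863) it was 1 with the deposited values (2091), a day of its own for ethanol replicate 1 (124) or the covariate (1308). With only the arrays compared it was 0 (0). With single arrays left out, the number of the 7 ran from 0 to 0 for bleomycin (25 to 63) and 4 to 5 for MMS (1885 to 2098). It ran from 3 to 5 for NaCl (811 to 3713) and 2 to 2 for MMS minus bleomycin (1282 to 1919). Comparisons with ethanol or cisplatin are not counted here, since leaving out an array leaves 1 in those groups.

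These values changed sign. Under median scaling and with the deposited values, TPS3 with cisplatin was -0.06 and -0.02, and TSL1 for ethanol minus NaCl 0.34 and 0.06. With no replicate block, TPS1 and TPS2 with cisplatin were 0.06 and 0.73, TPS2 and TSL1 for MMS minus bleomycin -0.88 and -0.22, and TPS1 and TPS2 for ethanol minus NaCl -0.38 and -0.05. With a random block these were 0.03 and 0.68, -0.79 and -0.19, and -0.35 for TPS1. With the ACT1 5′ class TPS2 with MMS was -0.06, TPS1 and TPS2 with cisplatin 0.02 and 0.67, TPS2, TPS3 and TSL1 for MMS minus bleomycin -1.35, -0.08 and -0.25, and TPS1 and TPS2 for ethanol minus NaCl -0.38 and -0.05. With the covariate NTH2 for DNA-damaging minus other agents was -0.13 and ATH1 for MMS minus bleomycin -0.03. With a day of its own for ethanol replicate 1 that NTH2 value was -0.53. Without the low-ACT1 arrays TPS3 with cisplatin was 0, NTH1 with NaCl 0.25, NTH2 for DNA-damaging minus other agents -0.1, TSL1 for MMS minus bleomycin -0.4 and TPS1 for ethanol minus NaCl -0.11. With single arrays left out TPS1 and TPS3 with bleomycin ran from -0.05 to 0.88 and from -0.09 to 0.29, TPS3 with cisplatin from -0.29 to 0.25, NTH2 for DNA-damaging minus other agents from -0.53 to 0.57 and TSL1 for MMS minus bleomycin from -0.34 to 0.6.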
